A study of Mus musculus with 12 samples.

Results

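The response of J774.1 cells to isorhamnetin was compared between a line labelled Rictor-KO and unedited cells (WT), gene by gene. The quantity described is the response difference: the log2 change from DMSO to isorhamnetin in Rictor-KO minus the same change in WT. It rests on 8 of the 12 libraries of the series, 2 in each of 4 groups: WT with DMSO, WT with isorhamnetin, Rictor-KO with DMSO and Rictor-KO with isorhamnetin. The other 4 libraries, of a GATA3-KO line, entered the fit only for its estimate of spread. Isorhamnetin, a methylated plant flavonol, was given at 10 µM for 6 h, and the controls received its solvent DMSO for as long. J774.1 is a macrophage-like line of BALB/c mice, and total RNA was sequenced as reads per gene. Rictor-KO is named as a single line and how it was made is not given in the sources used here, so the loss of Rictor and the history of that line cannot be told apart. Whether the 2 libraries of a group stem from different cultures is not stated, and every p-value here therefore rests on a spread that may be technical.

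The 8 libraries held 35671457 to 39361017 exon reads each, of which 0.854% to 1.23% came from the mitochondrial genome. All 10 macrophage markers that were looked up had reads in all 8 libraries. Csf1r, the receptor for the growth factor CSF-1, lay at 1088 to 1738 CPM (exon reads scaled to equal library totals, here before TMM normalisation), Lyz2 at 624 to 5028 and Cd68 at 323 to 487, while Adgre1 was among the lowest at 2.73 to 38.9. T lymphocyte markers summed to 4.15 to 13.5 CPM. Among them Lck, Cd5, Cd28, Gata3 and Il7r exceeded 1 CPM in at least 1 library, while Cd3e, Cd3g and both Trbc genes were at 0. B lymphocyte, neutrophil and mast cell, fibroblast, and epithelial and endothelial markers each summed to at most 2.64.

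Macrophages sense microbial products and cytokines through receptors that switch on the NF-kB transcription factors, which drive cytokine and chemokine genes, and the interferon pathway, in which STAT and IRF factors drive antiviral genes. NRF2 is a transcription factor released by electrophilic and oxidative stress, and it drives genes for glutathione, thioredoxin and heme metabolism. Rictor is the defining subunit of mTORC2, a kinase complex best known for phosphorylating Akt. A positive response difference means a response that was more upward, or less downward, in Rictor-KO than in WT. A negative one means the reverse.

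Stretches of 6 promoters are printed here. Their genes belong to some of the lists that stood far from the background or that both lines raised. These genes are Cxcl2 and Nfkbia (NF-kB genes), Ifit1 and Isg15 (interferon-stimulated genes), Cxcl10 (both) and Gclm (NRF2). The stretches come from RefSeq (GRCm38.p6), are given in the direction of the gene, and end before the start site. Positions are chr5:90903782-90903832 (plus strand) for Cxcl2, chr12:55492648-55492780 (minus strand) for Nfkbia, chr19:34640760-34640833 (plus strand) for Ifit1, chr4:156200856-156200916 (minus strand) for Isg15, chr5:92349020-92349122 (minus strand) for Cxcl10 and chr3:122245403-122245451 (plus strand) for Gclm. Capitals mark letters that match the core of an NF-kB site (GGGANNTTC) in Cxcl2 and Nfkbia, of an interferon-stimulated response element (GAAANNGAA) in Ifit1 and Isg15, of both in Cxcl10, and of an antioxidant response element (TGACNNNGC) in Gclm, each on either strand.
Cxcl2: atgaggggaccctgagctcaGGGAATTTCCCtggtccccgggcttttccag
Nfkbia: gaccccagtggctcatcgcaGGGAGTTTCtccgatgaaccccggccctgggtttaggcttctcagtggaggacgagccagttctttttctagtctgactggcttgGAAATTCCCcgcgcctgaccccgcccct
Ifit1: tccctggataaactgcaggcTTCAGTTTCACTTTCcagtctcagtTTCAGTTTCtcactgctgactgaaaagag
Isg15: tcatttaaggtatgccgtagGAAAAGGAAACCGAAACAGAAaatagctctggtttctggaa
Cxcl10: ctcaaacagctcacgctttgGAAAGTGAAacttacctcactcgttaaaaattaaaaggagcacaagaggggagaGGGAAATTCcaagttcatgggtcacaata
Gclm: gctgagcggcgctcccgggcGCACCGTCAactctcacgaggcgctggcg
In Cxcl2 the 2 matches overlap on opposite strands, in Isg15 all 3 overlap, and in Ifit1 2 of the 3 do.

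Over all 32851 promoter windows of 300 bases, the interferon element core was found in 8.6%, the NF-kB core in 3.9% and the antioxidant core in 12.4%. Promoter windows could be matched by symbol for 9370 of the 11808 genes tested, and 8.9% of these genes held the interferon core in any of their windows. Among interferon-stimulated genes the share was 58.7% (27 of 46 matched). The interferon core was also found in 3 of 14 cytokine, 2 of 8 chemokine and 3 of 23 NF-kB genes. NRF2 targets held it in 1 of 28 and S phase genes in 4 of 48. The NF-kB core was found in 6 of 14 matched cytokine genes and 3 of 8 chemokine genes, against 4.5% of the genes tested. It was found in 3 of 23 genes of NF-kB subunits and feedback and 6 of 46 interferon-stimulated genes. NRF2 targets held it in 0 of 28 and S phase genes in 1 of 48. The antioxidant core was found in 9 of 28 NRF2 targets (32.1%), against 16.9% of the genes tested. It was also found in 4 of 14 cytokine, 6 of 23 NF-kB and 8 of 46 interferon-stimulated genes. Chemokine genes held it in 1 of 8 and S phase genes in 9 of 48. Genes called below as positive and negative held the interferon core in 15.1% and 7.2%. They held the NF-kB core in 5.7% and 5.0% and the antioxidant core in 17.2% and 17.9%. A match is a description of the letters and not of a bound site.

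Of 11808 genes tested, 1624 (13.8%) had a response difference past the threshold, an adjusted p under 0.05 in edgeR's quasi-likelihood test. It was positive for 785 genes (6.65%) and negative for 839 (7.11%), and 530 differed at least 2-fold. The responses themselves were unequal in number: 2336 genes (19.8%) rose and 2157 (18.3%) fell with isorhamnetin in WT, 38.1% in all, and 169 (1.43%) rose and 57 (0.483%) fell in Rictor-KO, 1.91% in all. At an unadjusted p under 0.05 in the same test the counts were 5445 in WT and 1616 in Rictor-KO. Deviations of equal replicate numbers from their group means correlated at 0.80 between the Rictor-KO groups and -0.18 between the WT groups. The fit treats such shared variation as noise, so 1.91% does not show that Rictor-KO did not respond. Nor does an overlap of its treatments, as given for single genes below. The lines also differed before treatment, with 40.0% of genes past the threshold between Rictor-KO and WT under DMSO and 22.0% under isorhamnetin. These comparisons share libraries, so the levels in all 4 groups are given with each gene. The count rests partly on 2 libraries, since leaving out WT DMSO replicate 2 gave 779 genes and leaving out WT isorhamnetin replicate 2 gave 804. The balance of directions rests on the scaling: 48.3% of calls were positive with TMM, 37.9% with upper quartile scaling and 28.4% with library totals alone, which shifted the median of all genes from -0.01 to -0.13.

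**Figure D1:**
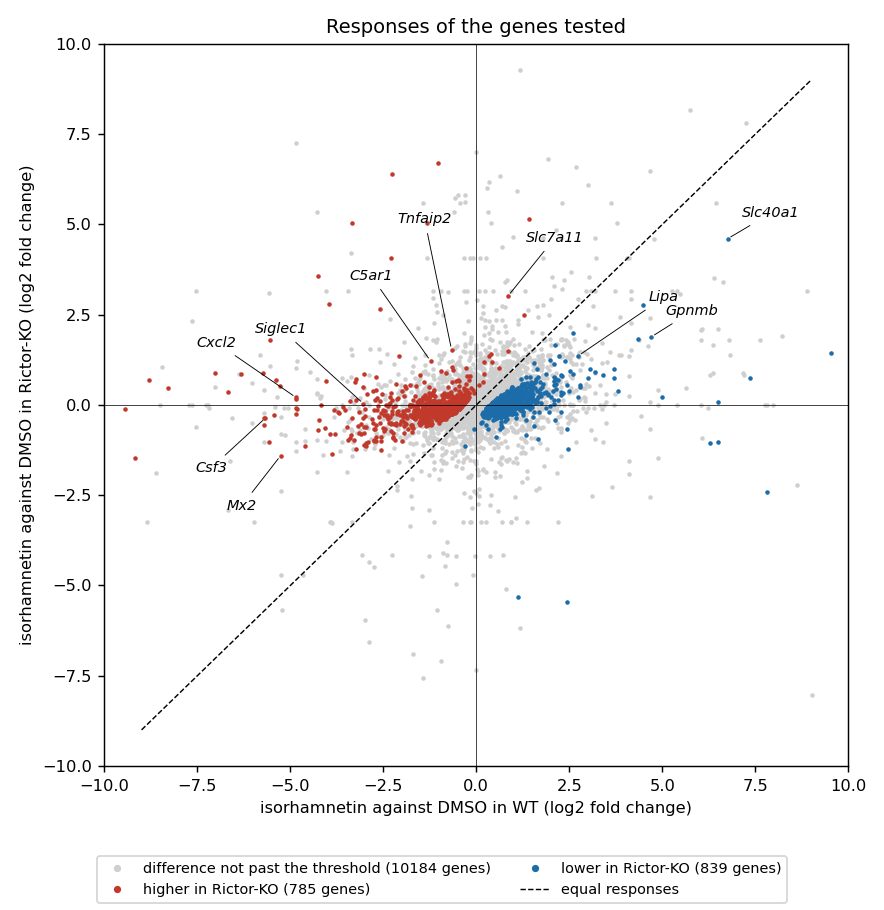
Log2 fold change with isorhamnetin in WT (x axis) against that in Rictor-KO (y axis) for the 11808 genes tested, with 785 genes of positive response difference in red, 839 of negative in blue and the rest in grey. Most coloured genes lie along the horizontal line of no change in Rictor-KO and spread to both sides in WT; fitted values of genes with 0 reads in a group are no measured folds.

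The response of Rictor itself did not differ past the threshold. Its level was 60.8 and 63 CPM (here and below after TMM) in the WT libraries with DMSO, 46 and 43.7 with isorhamnetin, 34.3 and 31.2 in Rictor-KO with DMSO and 23 and 23.9 with isorhamnetin. Rictor-KO libraries were lower than WT libraries under either treatment, and within each line the isorhamnetin libraries were the lower ones. The log2 difference between the lines was -0.92 under DMSO (adjusted p = 3.31e-06) and -0.94 under isorhamnetin (adjusted p = 6.17e-06), and the response difference was -0.02 ± 0.13 (SE, adjusted p = 0.958). Rictor reads were thus still counted in the libraries labelled as knockouts, and whether they span the edited part was not tested. Gata3, the gene edited in the third line of the series, lay at 0.331 to 1.60 CPM in the 8 libraries with a response difference of 0.49 ± 0.76 (SE, adjusted p = 0.748).

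Cytokine, chemokine and NF-kB genes had larger shares of positive differences than all genes tested. Of 21 tested genes for inflammatory and growth cytokines, 10 had a positive response difference and 0 a negative one, against 6.65% and 7.11% of all genes. Their median was 2.02 on the log2 scale, with medians of -2.25 for the response in WT and -0.10 in Rictor-KO, and 1.36 when the 3 genes with a group at 0 reads (Il6, Il11, Ifnb1) were set to a floor of 3 reads per group. Among 14 chemokine genes, 9 differences were positive and 0 negative, with a median of 2.14, or 2.89 at the floor. Among 28 genes of NF-kB subunits and feedback, 16 were positive and 1, the deubiquitinase gene Cyld, was negative, with a median of 0.63. These 17 calls numbered 10 without WT DMSO replicate 2 or Rictor-KO isorhamnetin replicate 1. The median over all genes was -0.01.

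Csf3, the gene of the neutrophil growth factor G-CSF, lay at 189.6 and 269 CPM in WT controls, 5.73 and 3.26 in WT with isorhamnetin, 2.53 and 2.24 in Rictor-KO with DMSO and 1.67 and 2.04 in Rictor-KO with isorhamnetin. The WT libraries with DMSO stood far above the other 6, which all lay under 6 CPM. The response difference was 5.31 ± 0.41 (SE, adjusted p = 8.15e-05). Osm, the gene of the cytokine oncostatin M, had the same order, at 46.8 and 49.1 CPM in WT controls, 11.8 and 8.4 with isorhamnetin, and 5.63 and 6.07 under DMSO and 4.68 and 6.58 under isorhamnetin in Rictor-KO, for a difference of 2.19 ± 0.25 (SE, adjusted p = 0.000101). Both treatments overlapped in Rictor-KO. Tgfb1, the gene of an anti-inflammatory and fibrogenic cytokine, fell in WT from 445 and 422 to 185 and 147 CPM and lay at 191 and 198 CPM under DMSO and 158 and 152 under isorhamnetin in Rictor-KO, a difference of 1.06 ± 0.16 (SE, adjusted p = 0.000722).

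Ltb, a member of the tumour necrosis factor family, differed from these in that it was higher in Rictor-KO before treatment. It fell in WT from 57.5 and 58 CPM to 22.9 and 18.1, and stood at 228 and 196 under DMSO and 189.8 and 176 under isorhamnetin in Rictor-KO. All Rictor-KO libraries were above all WT libraries, and the response difference was 1.28 ± 0.15 (SE, adjusted p = 0.000159). Il6, singled out after its values were seen, had 31 and 120 reads in WT controls and 0 in both WT libraries with isorhamnetin, against 36 and 22 reads under DMSO and 36 and 22 under isorhamnetin in Rictor-KO (adjusted p = 0.00175). Il1b and Tnf, also singled out, did not pass in edgeR with robust estimation, but both passed without it (adjusted p = 0.00461 and 0.0139) and with DESeq2 (adjusted p = 0.000119 and 0.00617). Il1b lay at 2124 and 2638 CPM in WT controls and 10.0 and 2.24 with isorhamnetin, with Rictor-KO at 31.2 and 3.92 under DMSO and 8.35 and 1.17 under isorhamnetin. Its difference of 6.72 had an SE of 1.72 and an adjusted p of 0.0519, which became 0.0312 without Rictor-KO DMSO replicate 1, 0.0488 with library totals alone and 0.0475 with a filter of 1 CPM in 2 libraries. The Rictor-KO replicates lay far apart within each treatment.

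The chemokine genes with the largest differences were high in WT with DMSO only. Cxcl2, whose product attracts neutrophils, lay at 1948 and 2414 CPM in WT controls, 119.8 and 31.8 with isorhamnetin, 24.6 and 24.9 in Rictor-KO with DMSO and 23.1 and 33.9 with isorhamnetin. The difference of 5.05 ± 0.84 (SE, adjusted p = 0.0115) has a wide error, and the WT isorhamnetin replicates lay apart, the higher well above and the lower within the Rictor-KO range. Ccl3, the gene of the macrophage inflammatory protein MIP-1 alpha, fell in WT from 2457 and 2773 to 277 and 124 CPM and moved little in Rictor-KO, at 168 and 165 under DMSO and 125 and 162 under isorhamnetin, for a difference of 3.50 ± 0.48 (SE, adjusted p = 0.00473). Ccl4 lay at 726 and 844 CPM under DMSO and 108 and 40.1 under isorhamnetin in WT and 64.5 and 71.3 under DMSO and 60.8 and 86.5 under isorhamnetin in Rictor-KO (difference 3.52, adjusted p = 0.0134). The Ccl4 call was lost without WT DMSO replicate 2 or Rictor-KO DMSO replicate 1, or with the 8 WT and Rictor-KO libraries fitted alone (highest adjusted p = 0.0567). Cxcl10, an interferon-induced chemokine gene, fell from 25.7 and 22.8 to 5.4 and 3.87 CPM in WT and stood at 6.07 and 5.68 under DMSO and 4.73 and 4.29 under isorhamnetin in Rictor-KO, a difference of 2.004 ± 0.30 (SE, adjusted p = 0.000726). Ccl2, which attracts monocytes, moved from 33.2 and 40.4 to 3.53 and 1.17 CPM in WT and from 0.272 and 0.051 to 1.33 and 0.894 in Rictor-KO, where the change alone did not pass (adjusted p = 0.142). Its response difference was 6.75 ± 0.87 (SE, adjusted p = 0.00129).

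**Figure D2:**
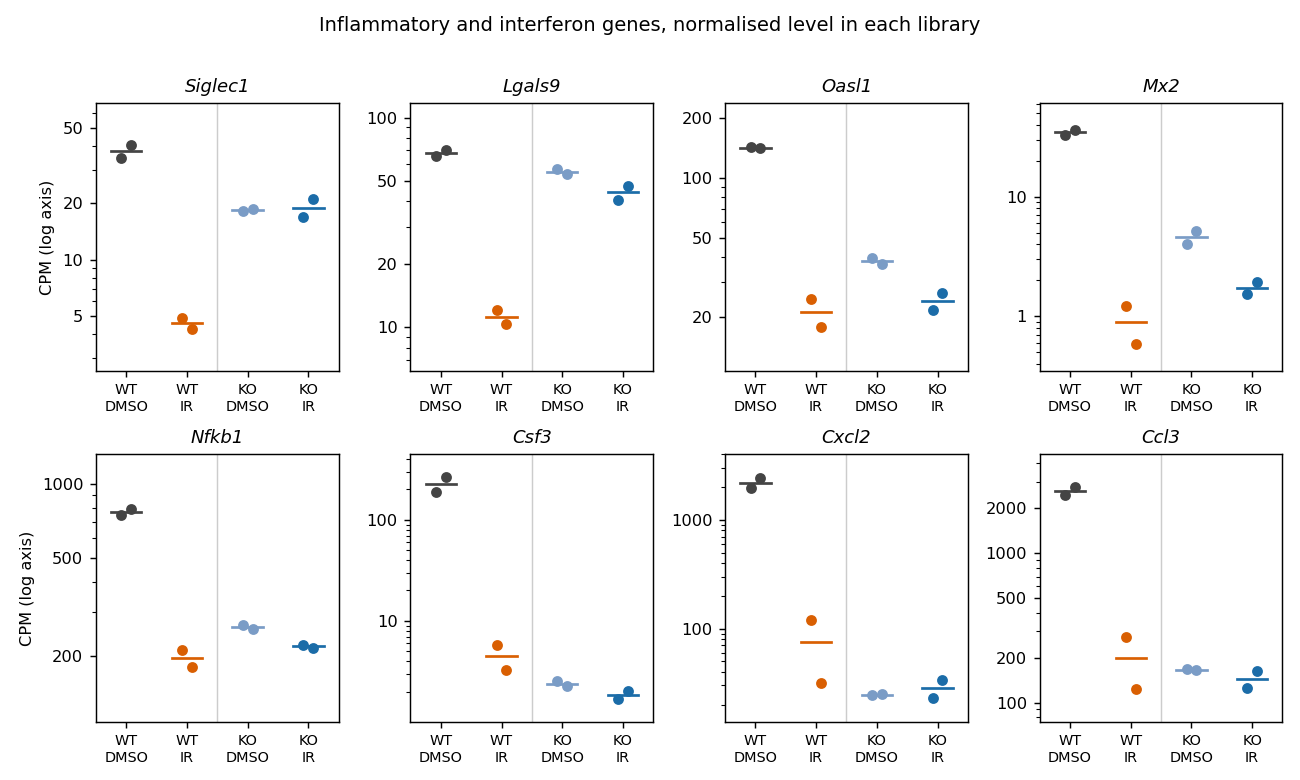
CPM (log axis) of 8 inflammatory and interferon genes in each of the 8 libraries, with WT left and Rictor-KO (KO) right of the grey line, DMSO beside isorhamnetin (IR), points for libraries and bars for the mean of 2. In each panel the WT libraries with DMSO are the highest, and the step from DMSO to isorhamnetin is larger in WT than in Rictor-KO.

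NF-kB genes themselves showed smaller but tighter differences. Nfkb1, which encodes the p105 precursor of the p50 subunit, lay at 748 and 791 CPM in WT controls, 212 and 179.7 with isorhamnetin, and 266 and 258 under DMSO and 222 and 215 under isorhamnetin in Rictor-KO. Rel, the gene of the c-Rel subunit, lay at 269 and 294 CPM under DMSO and 78 and 70.5 under isorhamnetin in WT and at 85.9 and 85.6 under DMSO and 74.3 and 66.9 under isorhamnetin in Rictor-KO. For both genes the WT libraries with DMSO stood alone and the others lay close together. The response differences were 1.72 ± 0.13 (SE, adjusted p = 1.23e-05) for Nfkb1 and 1.64 ± 0.14 (SE, adjusted p = 2.5e-05) for Rel. Under DMSO the log2 difference between the lines was -1.72 for Rel (adjusted p = 2.95e-08), and under isorhamnetin it was -0.07 (adjusted p = 0.662). Nfkbia, the gene of the NF-kB inhibitor IkB alpha, singled out for its promoter, fell in WT from 416 and 476 to 159 and 123 CPM and lay at 161 and 131 under DMSO and 131 and 116 under isorhamnetin in Rictor-KO, a difference of 1.42 ± 0.18 (SE, adjusted p = 0.000229). Tnip1, an adaptor that restrains NF-kB signalling, went from 425 and 434 to 144 and 103 CPM in WT while the Rictor-KO treatments overlapped at 243 and 212 under DMSO and 241 and 213 under isorhamnetin, and differed by 1.79 ± 0.19 (SE, adjusted p = 9.45e-05).

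Receptors, ligands and effector enzymes followed. Of 11 costimulatory and checkpoint ligand genes 8 were positive and 1 negative (81.8% called, against 13.8% of all genes), with a median of 1.91. The 9 calls numbered 5 without WT DMSO replicate 2. Cd80, a ligand of CD28 on T cells, fell in both lines, from 40.8 and 37.5 to 8.48 and 5.5 CPM in WT and from 23 and 25.2 to 14 and 15.4 in Rictor-KO, and the response difference was 1.78 ± 0.22 (SE, adjusted p = 0.000169). Havcr2, the gene of the checkpoint receptor TIM-3 and the negative member, rose in WT from 11.7 and 9.88 to 40.8 and 54.7 CPM against 4.24 and 4.03 under DMSO and 7.48 and 4.87 under isorhamnetin in Rictor-KO, a difference of -1.57 ± 0.27 (SE, adjusted p = 0.00187). Among 23 genes of Toll-like receptors and adaptors, 7 were positive and 1 negative (34.8% called, against 13.8% of all genes). Only 5 were called without WT DMSO replicate 1, WT DMSO replicate 2 or WT isorhamnetin replicate 2, or with library totals alone. Cd14, the lipopolysaccharide co-receptor, fell in WT from 2302 and 2495 to 861 and 537 CPM and stood at 316 and 276 under DMSO and 304 and 291 under isorhamnetin in Rictor-KO (adjusted p = 0.001). Tlr13, a receptor for bacterial ribosomal RNA, was the negative member and rose in both lines, from 35.1 and 31.9 to 163 and 189 CPM in WT and from 24.7 and 23.6 to 56.1 and 55.6 in Rictor-KO, with a difference of -1.18 ± 0.14 (SE, adjusted p = 0.00017).

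Nos2, the inducible nitric oxide synthase, had its highest levels in Rictor-KO. It lay at 8.85 and 11.3 CPM in WT controls and 0.404 and 0.305 in treated WT cells, but at 97.9 and 57.4 under DMSO and 83.8 and 59.1 under isorhamnetin in Rictor-KO, where treatments overlapped. The difference was 4.70 ± 0.59 (SE, adjusted p = 0.00201), and was not past the threshold with limma-voom (adjusted p = 0.10). Mmp9, a gelatinase, lay at 23.7 and 31.4 CPM under DMSO and 1.16 and 0.153 under isorhamnetin in WT and 1.66 and 1.48 under DMSO and 2.63 and 2.43 under isorhamnetin in Rictor-KO, a difference of 6.07 ± 0.76 (SE, adjusted p = 0.00107). Acod1, which makes itaconate, lay at 967 and 1161 CPM under DMSO and 287 and 151 under isorhamnetin in WT and 336 and 216 under DMSO and 322 and 287 under isorhamnetin in Rictor-KO (adjusted p = 0.0155). The Acod1 call was lost without WT DMSO replicate 2, or with the 8 WT and Rictor-KO libraries fitted alone (highest adjusted p = 0.0616). Il1a, in which Rictor-KO had 0 and 4 reads with DMSO and 4 and 3 with isorhamnetin, fell in WT from 406 and 514 to 1.44 and 0.611 CPM. Its call (adjusted p = 0.0194) was lost without Rictor-KO isorhamnetin replicate 1, Rictor-KO isorhamnetin replicate 2, GATA3-KO DMSO replicate 1 or GATA3-KO DMSO replicate 2 (highest adjusted p = 0.13).

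Interferon-stimulated genes were the list with the highest share of positive differences among those with over 20 tested members. Of 58 tested, 45 were positive and 0 negative, and the median response difference was 1.73, with medians of -2.58 for the response in WT and -0.60 in Rictor-KO. With isorhamnetin 55 of them fell in WT and 10 in Rictor-KO, against 18.3% and 0.483% of all genes. The line difference had a median of -1.83 under DMSO and 0.06 under isorhamnetin. With any library left out, 38 to 46 were positive, and under the other scalings 44 or 45.

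Mx2, an antiviral dynamin-like GTPase, lay at 32.9 and 36.3 CPM in WT controls, 1.21 and 0.585 with isorhamnetin, 4.03 and 5.15 in Rictor-KO with DMSO and 1.53 and 1.94 with isorhamnetin. It fell in both lines, the fall was larger in WT, and the difference was 3.86 ± 0.37 (SE, adjusted p = 4.25e-05). Zbp1, which senses Z-DNA and Z-RNA, lay at 20.8 and 20.3 CPM in WT controls and between 1.19 and 1.58 in the other 6 libraries, for a difference of 3.50 ± 0.33 (SE, adjusted p = 3.44e-05). Oasl1, an oligoadenylate synthetase-like gene, fell in WT from 142 and 142 to 24.6 and 17.9 CPM and in Rictor-KO from 39.5 and 37.2 to 21.8 and 26.5, and differed by 2.07 ± 0.19 (SE, adjusted p = 3.44e-05). Isg15, a ubiquitin-like modifier, fell in WT from 43.8 and 46.8 to 3.56 and 1.86 CPM and lay at 5.9 and 7.62 under DMSO and 2.76 and 5.98 under isorhamnetin in Rictor-KO, where treatments overlapped (3.43, adjusted p = 0.00456). Ifit1, which binds viral RNA and was singled out for its promoter, fell in WT from 21.9 and 22.2 to 1.92 and 1.22 CPM against 3.59 and 3.92 under DMSO and 2.24 and 2.06 under isorhamnetin in Rictor-KO, a difference of 3.005 ± 0.33 (SE, adjusted p = 8.79e-05).

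Genes of interferon signalling were also called. Stat2, a factor of the type I interferon response, lay at 57.6 and 60.4 CPM in WT controls, 20.7 and 24.7 with isorhamnetin, 19.6 and 30.6 in Rictor-KO with DMSO and 22.1 and 25.4 with isorhamnetin. The WT libraries with DMSO stood above the other 6, which overlapped between treatments in Rictor-KO, and the response difference was 1.29 ± 0.24 (SE, adjusted p = 0.00278). Of 21 genes for interferon receptors, IRF and STAT factors, 8 were positive, among them Stat3, Stat2, Irf9 and Irf7, and 1 negative (the interferon gamma receptor gene Ifngr1), which became 3 in all without WT DMSO replicate 2, or 4 with WT isorhamnetin replicate 2 left out. Leaving out Rictor-KO DMSO replicate 1 or Rictor-KO isorhamnetin replicate 2 gave 5. Among 20 genes of MHC class I and the immunoproteasome 4 were positive, of which Tap1, a peptide transporter, fell from 55.9 and 50.6 to 21.6 and 19.5 CPM in WT against 23.2 and 22.9 under DMSO and 17.9 and 18.1 under isorhamnetin in Rictor-KO (difference 1.02, adjusted p = 0.000363).

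**Figure D3:**
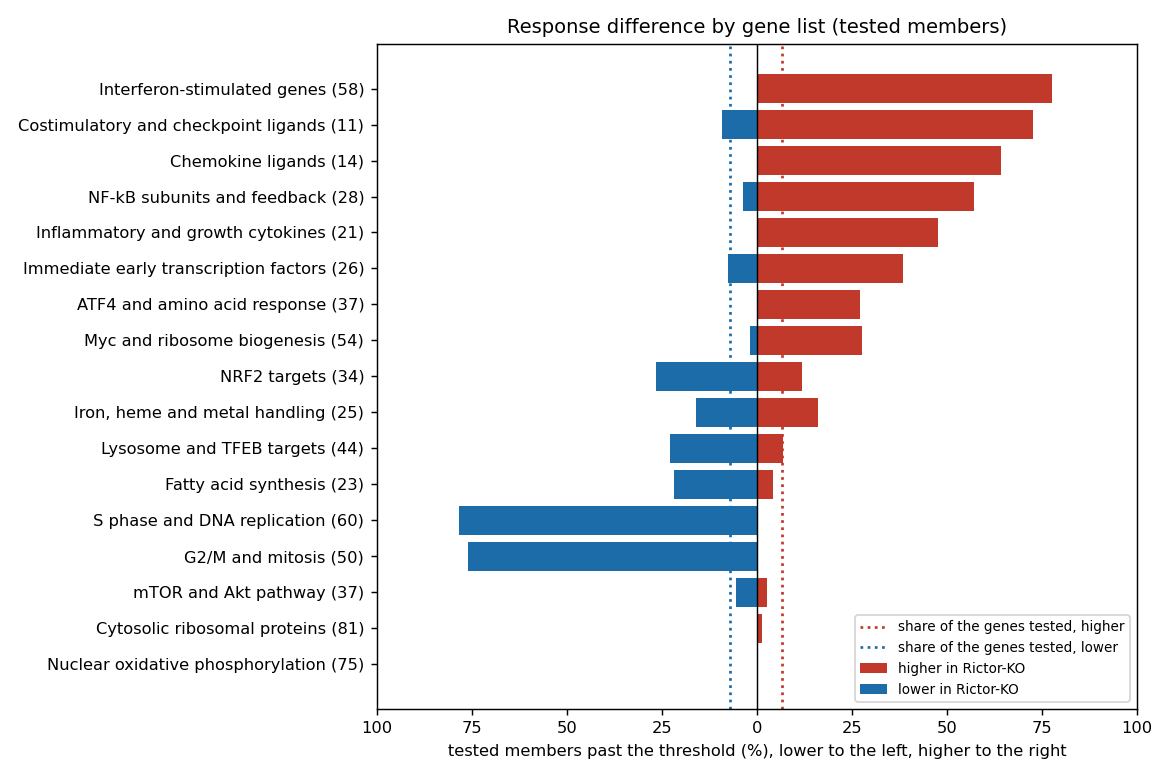
Share of tested members (x axis, %) of 17 gene lists with a positive response difference (red, right) or a negative one (blue, left), with the number tested in parentheses and dotted lines at the shares of all genes, 6.65% and 7.11%. Interferon-stimulated, costimulatory ligand, chemokine and NF-kB lists extend to the right and both cell cycle lists to the left, while ribosomal protein and oxidative phosphorylation genes show next to none.

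Some genes began closer together in the lines and parted under isorhamnetin. These were singled out after their values were seen. Lgals9, the gene of galectin-9, lay at 66.1 and 70.5 CPM in WT controls and 56.9 and 53.7 in Rictor-KO controls. With isorhamnetin it lay at 12.1 and 10.4 in WT and 40.7 and 47.3 in Rictor-KO. Only the WT libraries with isorhamnetin stood apart by several fold, and the response difference was 2.28 ± 0.16 (SE, adjusted p = 5.05e-06). The line difference was -0.30 under DMSO (adjusted p = 0.037) and 1.97 under isorhamnetin (adjusted p = 3.79e-08). Siglec1, a sialic acid-binding receptor of macrophages, had the smallest p of the positive genes named by the rule. Its levels were 34.4 and 40.7 CPM in WT controls, 4.89 and 4.28 with isorhamnetin, 18.1 and 18.7 in Rictor-KO with DMSO and 16.8 and 20.9 with isorhamnetin, so that both Rictor-KO groups overlapped and lay between the WT groups. Its difference was 3.07 ± 0.21 (SE, adjusted p = 5.05e-06).

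Zfp811, a zinc finger gene, went from 12.9 and 15.1 to 0.706 and 0.255 CPM in WT and lay at 9.82 and 8.18 under DMSO and 13.2 and 7.1 under isorhamnetin in Rictor-KO, a difference of 5.03 ± 0.51 (SE, adjusted p = 0.000376). Lhfpl2, a tetraspan membrane protein gene, parted in the other direction. It rose from 21.4 and 22.1 to 114 and 133 CPM in WT and from 27.8 and 23.4 to 51.7 and 47.1 in Rictor-KO, for a difference of -1.56 ± 0.15 (SE, adjusted p = 4.25e-05). The lines did not pass the threshold under DMSO (0.23, adjusted p = 0.0995) and did under isorhamnetin (-1.32, adjusted p = 7.19e-07). Slc43a2, an amino acid transporter gene, rose in WT from 50.1 and 41.4 to 203 and 238 CPM and overlapped between treatments in Rictor-KO, at 63.9 and 39.7 under DMSO and 77.4 and 47.7 under isorhamnetin (-1.99, adjusted p = 0.018). The Slc43a2 call was lost without WT DMSO replicate 2 or WT isorhamnetin replicate 2, or with the 8 WT and Rictor-KO libraries fitted alone (highest adjusted p = 0.0805).

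In 9 genes, of 11808 tested, both responses passed the threshold with opposite signs, provisional symbols (Gm, Rik and the like) not counted. Of these, 8 fell in WT and rose in Rictor-KO (Ripk2, Tnfaip2, C5ar1, Pdlim7, Znrf1, P2ry6, Cd274 and Impact) and 1, the linker histone gene H1f0, rose in WT and fell in Rictor-KO. The alternative fits covered the response difference only, so whether both responses pass with opposite signs in them was not tested. Ripk2, a kinase that relays signals of the bacterial sensors NOD1 and NOD2, lay at 82.3 and 88.6 CPM in WT controls, 38.5 and 31.7 with isorhamnetin, 38.9 and 46.8 in Rictor-KO with DMSO and 60.3 and 61.4 with isorhamnetin. The order of the lines thus turned over between treatments, and the response difference was 1.79 ± 0.15 (SE, adjusted p = 2.23e-05). Tnfaip2, a gene induced by tumour necrosis factor, lay at 254 and 276 CPM under DMSO and 171 and 163 under isorhamnetin in WT and rose from 25 and 17.3 to 67.7 and 54.2 in Rictor-KO, staying under WT throughout. Its difference was 2.19 ± 0.20 (SE, adjusted p = 5.06e-05). C5ar1, the receptor for the complement fragment C5a, fell from 95.5 and 104 to 48.6 and 36.5 CPM in WT and rose from 1.01 and 0.918 to 2.02 and 2.46 in Rictor-KO, where its level stayed many times lower, for a difference of 2.45 ± 0.25 (SE, adjusted p = 7.89e-05).

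P2ry6, a receptor for the nucleotide UDP, fell from 111 and 107 to 76.6 and 60.7 CPM in WT and rose from 20.5 and 19.8 to 33.6 and 28.4 in Rictor-KO (1.29, adjusted p = 0.000415). Cd274, the checkpoint ligand PD-L1, fell from 12.4 and 13.9 to 9.28 and 7.76 CPM in WT and rose from 4.68 and 3.77 to 8.0 and 8.66 in Rictor-KO (1.60, adjusted p = 0.00198), and the isorhamnetin libraries of the lines overlapped. H1f0 went from 169.5 and 139 to 187 and 194 CPM in WT and from 267 and 289 to 167 and 185 in Rictor-KO (-0.97, adjusted p = 0.000764). In all 3 the change in each line was under 2-fold.

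NRF2 targets rose in both lines, with differences in either direction. Of 34 tested NRF2 targets, 30 rose in WT and 19 in Rictor-KO, against 19.8% and 1.43% of all genes, and none fell in either. The response difference was positive for 4 (Slc7a11, Trim16, Sqstm1 and Txnrd1) and negative for 9 (Taldo1, Gclc, Gclm, Srxn1, Idh1, Prdx1, Ugdh, Ptgr1 and Gsr), against 6.65% and 7.11% of all genes. The median difference was -0.26, or -0.39 with Nqo1 at the floor. The 13 calls numbered 5 with either WT DMSO replicate left out, and 4 without WT isorhamnetin replicate 2. They numbered 7 when Rictor-KO DMSO replicate 1 or either Rictor-KO isorhamnetin replicate was left out. Gclm, the modifier subunit of the enzyme that starts glutathione synthesis, rose in WT from 94.1 and 101 to 557 and 618 CPM and in Rictor-KO from 74.7 and 90.7 to 306 and 351. Groups did not overlap between treatments in either line, and the difference was -0.60 ± 0.15 (SE, adjusted p = 0.0138). The Gclm call was lost without WT DMSO replicate 1, WT isorhamnetin replicate 2, Rictor-KO DMSO replicate 2 or Rictor-KO isorhamnetin replicate 1 (highest adjusted p = 0.0803). Its partner Gclc rose from 85.7 and 78.2 to 196 and 218 CPM in WT and from 88.8 and 94.8 to 165 and 151 in Rictor-KO (-0.55, adjusted p = 0.00737). The Gclc call was lost without WT DMSO replicate 2 or WT isorhamnetin replicate 2 (highest adjusted p = 0.0593).

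Slc7a11, the cystine importer, was the positive member with the smallest p. It lay at 203 and 246 CPM in WT controls, 471 and 340.0 with isorhamnetin, 33 and 37 in Rictor-KO with DMSO and 227 and 341 with isorhamnetin. Rictor-KO with DMSO stood far below the rest, and Rictor-KO with isorhamnetin overlapped both WT groups. The difference was 2.17 ± 0.30 (SE, adjusted p = 0.00229). Sqstm1, the autophagy receptor p62, rose from 567 and 645 to 1247 and 961 CPM in WT and from 204 and 176 to 495 and 575 in Rictor-KO (0.63, adjusted p = 0.0257). The Sqstm1 call was lost without WT DMSO replicate 2, WT isorhamnetin replicate 2, Rictor-KO DMSO replicate 2 or Rictor-KO isorhamnetin replicate 2, or with library totals alone or with the 8 WT and Rictor-KO libraries fitted alone (highest adjusted p = 0.138). Trim16, an E3 ligase gene, had 107 and 116 reads in WT with DMSO, 377 and 299 with isorhamnetin, 2 and 0 in Rictor-KO with DMSO and 40 and 44 with isorhamnetin (adjusted p = 0.00539). Hmox1, which degrades heme, and Nqo1, a quinone reductase, singled out after their values were seen, did not pass. Hmox1 rose from 219.6 and 221 to 562 and 522 CPM in WT and from 99.5 and 92.4 to 250.4 and 316 in Rictor-KO, a difference of 0.26 ± 0.15 (SE, adjusted p = 0.283). Nqo1 had 8 and 2 reads under DMSO and 248 and 377 under isorhamnetin in WT, and 26 and 46 in treated Rictor-KO after 0 in its controls (adjusted p = 0.396).

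**Figure D4:**
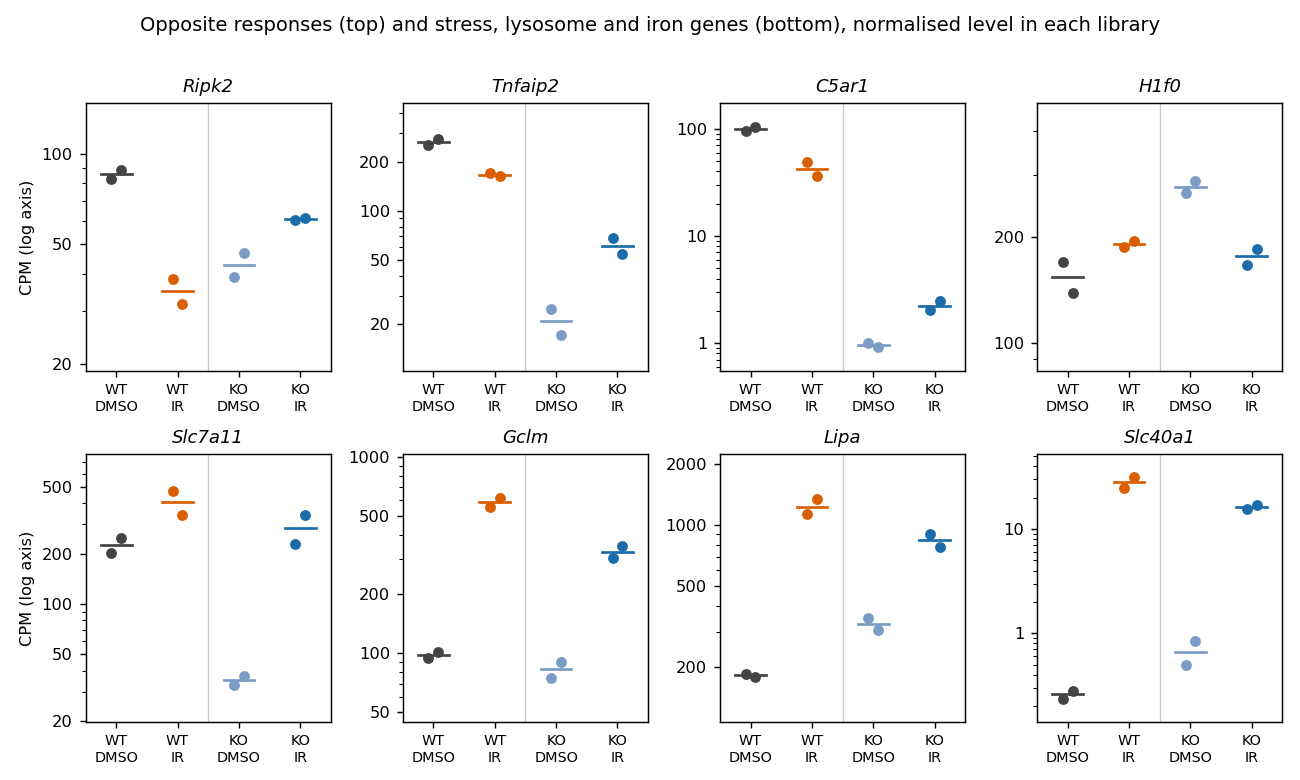
CPM (log axis) in each of the 8 libraries for 4 genes with opposite responses (top) and for the cystine importer Slc7a11, Gclm, Lipa and the iron exporter Slc40a1 (bottom), drawn with WT left and Rictor-KO (KO) right, DMSO beside isorhamnetin (IR), and bars at the mean of 2 libraries. The first 3 top panels step down in WT and up in Rictor-KO and H1f0 does the reverse, while all 4 bottom panels step up in both lines.

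Targets of ATF4, which answers amino acid shortage, were positive for 10 of 37 and negative for 0, against 6.65% and 7.11% of all genes. Their median difference was 0.37. The median response was -0.10 in WT and 0.25 in Rictor-KO. In WT 8 rose and 9 fell, close to the shares of all genes, 19.8% and 18.3%. In Rictor-KO 6 rose and 0 fell, against 1.43% and 0.483% of all genes. Asns, asparagine synthetase, lay at 217 and 224 CPM under DMSO and 219.7 and 192 under isorhamnetin in WT and rose from 228 and 239 to 302 and 323 in Rictor-KO (0.52, adjusted p = 0.00977). Trib3, a pseudokinase gene, lay at 13.6 and 15.3 CPM under DMSO and 21.2 and 15.4 under isorhamnetin in WT and rose from 9.09 and 10.9 to 22 and 29.2 in Rictor-KO (1.01, adjusted p = 0.0107). Treated and control libraries of Rictor-KO were apart for both genes, while those of WT overlapped for Asns and nearly met for Trib3. Leaving out WT DMSO replicate 2 ended both calls (adjusted p = 0.0583 for Asns and 0.0618 for Trib3), as did leaving out WT isorhamnetin replicate 2 (0.0695 and 0.0603). The list's 10 calls numbered 2 whichever of these libraries was left out, 6 without WT DMSO replicate 1 or Rictor-KO isorhamnetin replicate 2, and 21 with DESeq2.

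Among 25 genes of iron, heme and metal handling, 4 were positive (Mt2, Lcn2, Mtf1 and Slc11a2) and 4 negative (Slc48a1, Slc40a1, Steap3 and Flvcr1), and without WT DMSO replicate 2 the 8 calls numbered 5. The called share of the list was 32.0%, against 13.8% of all genes. Slc40a1, the iron exporter ferroportin, rose in both lines. It lay at 0.235 and 0.281 CPM in WT controls, 25.1 and 31.5 with isorhamnetin, 0.49 and 0.841 in Rictor-KO with DMSO and 15.7 and 17 with isorhamnetin, from 8 and 10 reads in WT with DMSO. Treated libraries were far above controls in both lines, with a response difference of -2.15 ± 0.37 (SE, adjusted p = 0.00161) that did not pass with limma-voom (adjusted p = 0.0898). Slc48a1, a heme transporter, rose from 48.2 and 46.2 to 178 and 196 CPM in WT and from 38.4 and 34.3 to 88.9 and 82.2 in Rictor-KO (-0.75, adjusted p = 0.00148). Mt2, a metallothionein, fell in WT from 144 and 153 to 63.5 and 47 CPM against 70.5 and 61.8 under DMSO and 75.9 and 79.4 under isorhamnetin in Rictor-KO, a difference of 1.66 ± 0.17 (SE, adjusted p = 7.89e-05).

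Lysosomal genes leaned to the negative side. Of 44 tested lysosome and TFEB target genes, 3 were positive and 10 negative, among them Lipa, Psap, Lgmn, Tfeb and Gpnmb. The list had a median of -0.22 and 29.5% called, against 13.8% of all genes. The 13 calls numbered 5 whether WT DMSO replicate 2 or WT isorhamnetin replicate 2 was left out, 7 without WT DMSO replicate 1, and 8 without Rictor-KO DMSO replicate 1 or either GATA3-KO isorhamnetin replicate. With library totals alone the counts were 0 and 16. Lipa, the lysosomal acid lipase that frees cholesterol from its esters, rose in WT from 186 and 180.5 to 1128 and 1335 CPM and in Rictor-KO from 348 and 305 to 906 and 778. Lines and treatments were all separate, and the difference was -1.38 ± 0.15 (SE, adjusted p = 8.04e-05). Psap, the precursor of the saposins, rose in WT from 376 and 353 to 758 and 914 CPM against 321 and 274 under DMSO and 362 and 342 under isorhamnetin in Rictor-KO (-0.96, adjusted p = 0.000876). Gpnmb, a glycoprotein gene of stressed lysosomes, rose in WT from 2.53 and 2.11 to 54.3 and 66.7 CPM and lay at 1.14 and 0.306 under DMSO and 3.62 and 1.69 under isorhamnetin in Rictor-KO (-2.82, adjusted p = 0.0289). The Gpnmb call was lost without WT DMSO replicate 1, WT DMSO replicate 2, WT isorhamnetin replicate 2, Rictor-KO DMSO replicate 1, GATA3-KO DMSO replicate 1, GATA3-KO DMSO replicate 2, GATA3-KO isorhamnetin replicate 1 or GATA3-KO isorhamnetin replicate 2, or with no filter beyond 1 exon read or with the 8 WT and Rictor-KO libraries fitted alone (highest adjusted p = 0.201). Of 23 fatty acid synthesis genes, 1 was positive and 5 negative (Lpin1, Scd2, Elovl5, Elovl6 and Fads2), which became 1 in all without WT DMSO replicate 2, 2 without WT isorhamnetin replicate 2 and 3 without WT DMSO replicate 1. Of 25 cholesterol synthesis genes, 0 were positive and 3 negative (Acat2, Dhcr7 and Ebp), against 6.65% and 7.11% of all genes. Each of these calls was lost in some fits with 1 library left out. Their differences then ranged from -0.552 to -0.408 for Acat2, -0.783 to -0.42 for Dhcr7 and -0.523 to -0.341 for Ebp. Dhcr7 and Ebp also did not pass in edgeR with the 8 WT and Rictor-KO libraries fitted alone (adjusted p = 0.0502 and 0.0668). Abca1, the cholesterol efflux pump, was positive among 15 LXR and efflux genes, at 80.9 and 99.8 CPM under DMSO and 21.4 and 19.4 under isorhamnetin in WT and 20.2 and 10.7 under DMSO and 28.2 and 17.6 under isorhamnetin in Rictor-KO, a difference of 2.72 ± 0.43 (SE, adjusted p = 0.00501).

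Cell cycle lists held the most negative differences of the 50 lists. Among the 60 replication and S phase genes tested, 47 had a negative difference and 0 a positive one, with a median of -0.59 and median responses of 0.53 in WT and -0.05 in Rictor-KO. Of 50 genes of G2/M and mitosis, 38 were negative and 0 positive, with a median of -0.56. With isorhamnetin, 53 of the first list rose in WT and 0 in Rictor-KO, against 19.8% and 1.43% of all genes. The line difference of the S phase list had a median of 0.71 under DMSO and 0.13 under isorhamnetin. The S phase calls numbered 27 with WT DMSO replicate 2 left out and 29 with WT isorhamnetin replicate 2 left out, and the G2/M calls 18 in both fits.

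E2f2, a transcription factor gene of S phase entry, lay at 22.5 and 22.6 CPM in WT controls and between 45.6 and 60.3 in the other 6 libraries (54.9 and 60.3 in WT with isorhamnetin, 47.5 and 45.6 under DMSO and 51.7 and 47.7 under isorhamnetin in Rictor-KO), a difference of -1.26 ± 0.13 (SE, adjusted p = 8.04e-05). Tk1, thymidine kinase, lay at 40.3 and 37.3 CPM under DMSO and 101 and 117 under isorhamnetin in WT and at 154 and 124 under DMSO and 163 and 137 under isorhamnetin in Rictor-KO (-1.38, adjusted p = 0.00017). Aurkb, a mitotic kinase, lay at 81.5 and 79.5 CPM under DMSO and 124 and 130.3 under isorhamnetin in WT and 148 and 159.7 under DMSO and 154 and 147 under isorhamnetin in Rictor-KO (-0.69, adjusted p = 0.0011). For each of these the WT libraries with DMSO were the lowest, and for Tk1 and Aurkb the Rictor-KO treatments overlapped. Cdkn1a, the CDK inhibitor p21, went the other way, from 330.0 and 314 to 153 and 117 CPM in WT against 201 and 156 under DMSO and 164 and 145 under isorhamnetin in Rictor-KO (1.05, adjusted p = 0.00253).

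**Figure D5:**
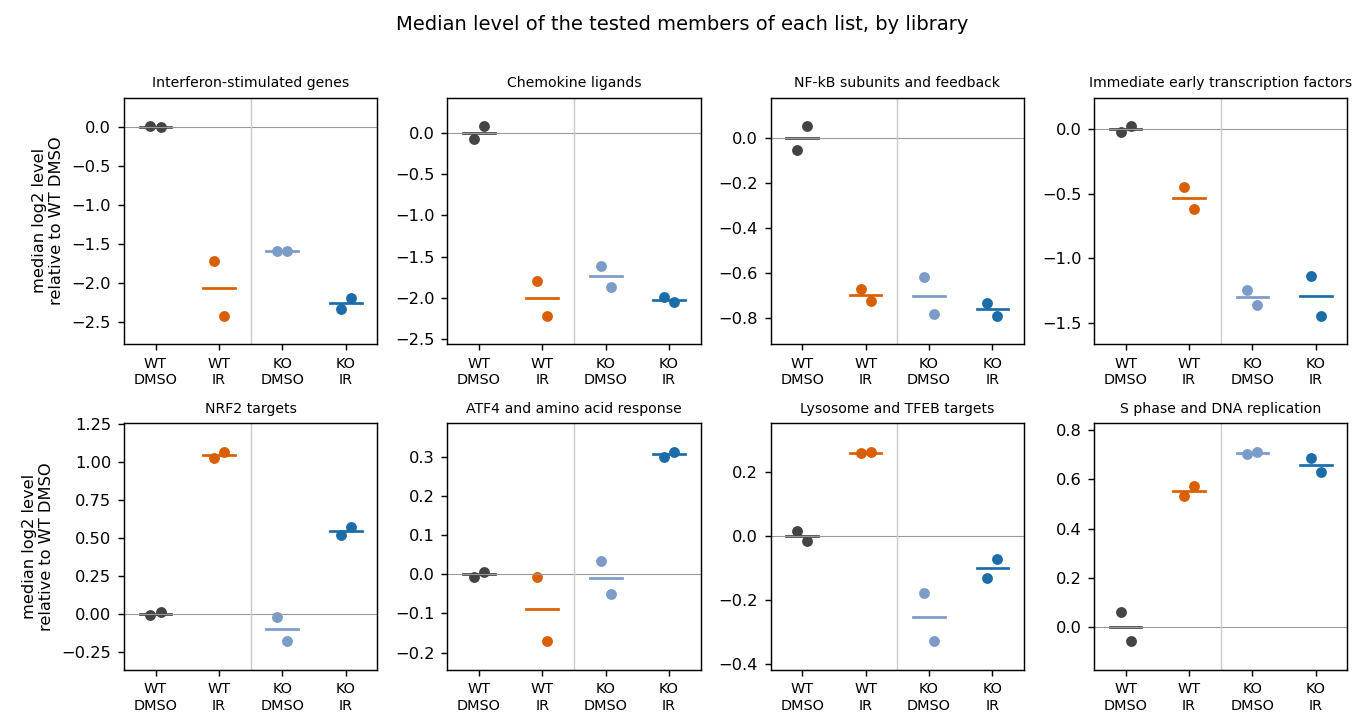
Median over the tested members of 8 lists of log2(CPM + 0.5) relative to each gene's WT DMSO mean, by library, with WT left and Rictor-KO (KO) right of the grey line and bars at the mean of 2 libraries. For interferon-stimulated, chemokine, NF-kB and S phase genes the WT DMSO libraries stand apart from the other 6, whereas NRF2 targets step up in both lines and ATF4 targets in Rictor-KO.

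Other negative genes with small p were of mixed roles. Plekho1, a pleckstrin homology domain gene, rose in WT from 36.6 and 34.4 to 145 and 156 CPM and in Rictor-KO from 55.7 and 49.5 to 79.2 and 88, and had the smallest p of the negative genes named by the rule, with a difference of -1.41 ± 0.13 (SE, adjusted p = 3.44e-05). Rasa3, a GTPase-activating protein for Ras family proteins, rose in WT from 40.3 and 37.7 to 94.8 and 111 CPM and overlapped between treatments in Rictor-KO at 81.4 and 73.9 under DMSO and 80.0 and 72.7 under isorhamnetin, a difference of -1.42 ± 0.13 (SE, adjusted p = 3.78e-05). S1pr2, a sphingosine 1-phosphate receptor, rose from 11.1 and 11.5 to 30.1 and 31.5 CPM in WT against 36.5 and 36 under DMSO and 44.6 and 43.4 under isorhamnetin in Rictor-KO (-1.17, adjusted p = 7.89e-05). Kitl, the stem cell factor gene, rose in WT from 2.44 and 2.3 to 15 and 16.4 CPM with Rictor-KO at 0.653 and 0.586 under DMSO and 1.08 and 0.347 under isorhamnetin (-2.52, adjusted p = 0.0335). The Kitl call was lost without WT DMSO replicate 1, WT DMSO replicate 2, WT isorhamnetin replicate 1, WT isorhamnetin replicate 2, Rictor-KO DMSO replicate 1, Rictor-KO DMSO replicate 2 or Rictor-KO isorhamnetin replicate 2 (highest adjusted p = 0.128). Among immediate early factors 10 of 26 were positive and 2 negative, 46.2% called against 13.8% of all genes. Junb lay at 489 and 512 CPM under DMSO and 231 and 165 under isorhamnetin in WT and 152 and 132 under DMSO and 128 and 109 under isorhamnetin in Rictor-KO (1.07, adjusted p = 0.00199).

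Growth and energy lists ranged from no calls to shares above the background. Of 37 genes of the mTOR and Akt pathway, to which Rictor belongs, 1 was positive (Akt1s1) and 2 negative (Sesn1 and Eif4ebp2), under the background shares, with a median of -0.04. Akt1s1, the mTORC1 subunit PRAS40, lay at 50.7 and 48.2 CPM under DMSO and 47.9 and 46.3 under isorhamnetin in WT and 33.2 and 30.5 under DMSO and 39.1 and 40.8 under isorhamnetin in Rictor-KO (0.40, adjusted p = 0.049). The Akt1s1 call was lost with library totals alone, with upper quartile scaling, with no filter beyond 1 exon read, and with any library but GATA3-KO DMSO replicate 1 left out (highest adjusted p = 0.184). Of 54 Myc and ribosome biogenesis genes 15 were positive and 1 negative (Mxi1), 29.6% called, but 6 and 1 with library totals alone, and 30 were called with DESeq2. Calls numbered 2 without WT DMSO replicate 2 or WT isorhamnetin replicate 2, 8 without WT DMSO replicate 1, and 9 when Rictor-KO DMSO replicate 1 or Rictor-KO isorhamnetin replicate 2 was left out. Of 35 glycolysis and hypoxia genes, 4 were positive, among them the glucose transporter gene Slc2a1, and 2 negative, 17.1% called against 13.8% of all genes. These 6 calls numbered 2 without WT DMSO replicate 2 or WT isorhamnetin replicate 2. Of 81 cytosolic ribosomal protein genes 1 was positive (Rps21), and of 75 nuclear oxidative phosphorylation genes and 13 mitochondrially encoded transcripts none was called by edgeR, DESeq2 or limma-voom, with 3 and 0 genes at an unadjusted p under 0.05 in edgeR. A p that misses the threshold does not show equal responses. On simulated counts this contrast recovered 26% of 50 genes changed 1.5-fold and 84% of 50 changed 2-fold. The changed genes all had a mean log2 CPM of at least 1, so recovery of lower genes was not tested. The simulated replicates were independent and equally spread in all groups, unlike the data, so recovery in the data may differ.

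Intron reads, mostly from unspliced RNA of the same libraries, gave a second readout. Of 11450 genes tested on intron reads, 440 (3.84%) had a response difference past the threshold, 268 positive (2.34%) and 172 negative (1.50%). Interferon-stimulated genes were positive in 26 of 48 and negative in 0, NF-kB genes positive in 8 of 28, and S phase genes negative in 12 of 60. NRF2 targets were positive in 2 of 32 and negative in 0, against 4 and 9 on exon reads. Lysosomal genes were positive in 0 of 42 and negative in 1, against 3 and 10 on exon reads. The negative exon calls of both lists were thus hardly seen on intron reads, where fewer genes passed in all. Lgals9 lay at 71.1 and 54.7 intron CPM in WT controls, 5.53 and 3.96 with isorhamnetin, and 38 and 22.5 under DMSO and 27.6 and 28.3 under isorhamnetin in Rictor-KO, an intron response difference of 3.61 (SE 0.47, adjusted p = 5.05e-06). Ccl3 lay at 372 and 387 intron CPM under DMSO and 89.3 and 57.8 under isorhamnetin in WT and 84 and 80.3 under DMSO and 73 and 89.8 under isorhamnetin in Rictor-KO, with an intron difference of 2.35 (SE 0.25, adjusted p = 7.5e-08). Trem2, a lipid-sensing receptor of macrophages, rose from 87.7 and 73.3 to 466 and 564 intron CPM in WT and stood at 174 and 144 under DMSO and 298 and 239 under isorhamnetin in Rictor-KO, an intron difference of -1.92 (SE 0.22, adjusted p = 3.36e-07). Its exon difference was -0.93 ± 0.14 (SE, adjusted p = 0.000736).

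Tnf passed on intron reads, and on exon reads in some fits only. Its intron level was 489.8 and 505 CPM in WT controls, 179.8 and 114 with isorhamnetin, and 229.6 and 268 under DMSO and 169 and 216 under isorhamnetin in Rictor-KO, for an intron difference of 1.38 (SE 0.23, adjusted p = 0.000223). On exon reads it lay at 1188 and 1288 CPM under DMSO and 381 and 135 under isorhamnetin in WT and 368 and 458 under DMSO and 307 and 391 under isorhamnetin in Rictor-KO, a difference of 2.02 ± 0.62 (SE, adjusted p = 0.0867) that did not pass, with WT isorhamnetin replicates far apart. The exon difference passed with DESeq2 (adjusted p = 0.00617), in edgeR without robust estimation (adjusted p = 0.0139), and without WT isorhamnetin replicate 1 (adjusted p = 1.23e-06) or replicate 2 (adjusted p = 0.000601). Whether the counts used strand is not given in the sources used here, so reads of overlapping genes cannot be told apart.

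Of 5 dendritic cell markers tested, 1 had a response difference, Bst2, which is also in the interferon list, and 2 fell in WT. The 10 markers looked up summed to 161 to 176 CPM before TMM in WT with DMSO, 60.9 to 64.4 with isorhamnetin, 120 to 122 in Rictor-KO with DMSO and 98.4 to 129 with isorhamnetin. Of these, 3 exceeded 1 CPM, among them Bst2, and Flt3, Cd209a, Ccr7 and Itgae were at 0 in all 8 libraries. T lymphocyte markers, of which 5 of 20 exceeded 1 CPM and 9 were at 0, summed to 5.76 to 6.82 in WT with DMSO, 13.2 to 13.5 with isorhamnetin, and 4.15 to 7.63 in Rictor-KO. Fewer cells of a type and less RNA per cell cannot be told apart in such bulk libraries, and the part of these markers in the results was not tested.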

How the data were processed

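Per library, the authors deposited counts of exon, intron and uniquely mapped exon reads of 25683 genes on GRCm38, per the submitters' processing notes and the file headers. The aligner and counting program are not given in the sources used here. Even numbers made up 81.3% of the values of 1 to 4 exon reads, so both reads of a pair appear to be counted. Fold change tables of the authors were not used here.

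Total exon counts of all 12 libraries, those of a GATA3-KO line included, were fitted in 1 model with a mean for each of 6 groups (edgeR 4.0.16, R 4.3.3, TMM, filterByExpr, robust quasi-likelihood F test, 6 residual degrees of freedom, two-sided). The response difference is a contrast of 4 of these means. Benjamini-Hochberg adjustment covered the 11808 genes tested, of 15156 with an exon read, and intron counts were fitted likewise. Levels are CPM after TMM, given for the 2 libraries of a group in replicate order, except markers, which are CPM before TMM. Errors are standard errors of the contrast, with n = 2 libraries per group. Each is the absolute log2 difference divided by the square root of the F statistic. Its spread is thus that of the fit to all 6 groups. Simulated counts with known changes were tested first: 4 of 155 calls were false. The simulated replicates were independent, with the same spread of a gene in all groups. In the data, replicate noise (chi-square per degree of freedom) ran from 8.34 in WT DMSO to 39.5 in Rictor-KO DMSO, so error rates there may differ. Replicates differed by more than sampling noise in each group.

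The members, the 50 gene lists and the tests were chosen with earlier results of these data known. The rule names Rictor and Gata3, the 15 largest differences and 10 smallest p-values in each direction (mean log2 CPM of at least 1, responses that do not overlap), up to 8 opposite responses in each orientation, and up to 4 members of each list by p, or all where at most 5 passed. From these, genes were selected for the text by role. Alternatives were other scalings, filters, tools (DESeq2 1.42.0, limma-voom 3.58.1), unique reads, a replicate block and each library left out. Promoters are RefSeq's GRCm38.p6 table.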

Additional observations from a re-analysis of the deposited data

Results flagged for a closer look

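The response to isorhamnetin differed between Rictor-KO and WT in 1624 genes by a test of the difference itself, the contrast of both responses. Of these, 9 (provisional symbols not counted) had responses past the threshold in both lines with opposite signs. Whether they do so in the alternative fits was not tested. The response difference was 1.79 for Ripk2, 2.19 for Tnfaip2, 2.45 for C5ar1, 1.22 for Pdlim7, 1.15 for Znrf1, 1.29 for P2ry6, 1.60 for Cd274, 0.77 for Impact and -0.97 for H1f0, on the log2 scale. With 2 libraries per group, no group was large enough to look for single libraries far from the others.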

How the results depend on the processing

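The number of genes called, 1624, lay between 1518 and 1988 under the other scalings, filters and tools and with unique reads or the 8 libraries alone, and between 779 and 1671 with 1 library left out. Of the 779 genes called without WT DMSO replicate 2, 772 were among the 1624, and of the 804 called without WT isorhamnetin replicate 2, 796 were. The intron count of 440 ranged from 187 to 443 with 1 library left out, and was 216 without WT DMSO replicate 2. The cause was not tested, though each such fit has fewer samples. Values that changed sign with a library left out were those of Rictor, which ranged from -0.0864 to 0.0504, and of Cxcr4, from -3.84 to 0.381, neither past the threshold. No other setting reversed a named gene. With a replicate block within genotype 3601 genes were called, 1834 positive and 1767 negative, and with a block common to the genotypes 1820. Under the block within genotype Il1b passed (adjusted p = 0.0283, or 0.0401 with the common block), Il1a and Sqstm1 did not (0.107 and 0.19), and 17 iron, heme and metal genes were called. Replicate numbers do not pair these samples by the labels. Deviations of the same number correlated at 0.80 between both Rictor-KO groups but at -0.18 between both WT groups and from -0.15 to -0.05 across lines. Depth limits genes of few reads, such as Trim16, Nqo1 and Il6, and 2 libraries per group limit differences under 2-fold.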
